A study of Mus musculus with 18 samples.

Results

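Cytochrome P450 families 1 to 4 were described in primary mouse hepatocytes exposed to interleukin-6 (IL-6) and then to hepatocyte growth factor (HGF). Members were all genes whose symbol consists of Cyp, a family number from 1 to 4, a subfamily letter and a gene number. The arrays held 54 such genes among 18193 measured genes, each read from 1 probe set, the one whose signal averaged over the 18 arrays was highest. Family Cyp1 gave 3 members, Cyp2 gave 35, Cyp3 gave 5 and Cyp4 gave 11. The mean signal of 33 members lay above the 40th percentile of all genes, which was a log2 signal of 5.866, and that of 21 members lay below it. Over the 18 arrays the brighter members spanned a median of 2.76 log2 units from lowest to highest array, and the dimmer ones 0.60.

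Cytochrome P450 enzymes of these families are heme-containing monooxygenases of the endoplasmic reticulum, which receive electrons from NADPH through P450 oxidoreductase and cytochrome b5. Hepatocytes use them to oxidise drugs, environmental chemicals, steroids, bile acids and fatty acids. Ligand-activated transcription factors control many of them: the aryl hydrocarbon receptor AhR the Cyp1 genes, CAR and PXR the Cyp2b and Cyp3a genes, and PPAR-alpha the Cyp4a genes. Glucocorticoid in the medium and liver-enriched factors such as HNF4-alpha are known to hold their expression in culture, and inflammation is known to lower it.

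The hepatocytes came from male C57BL/6N mice of 8 to 12 weeks, and the cells of a single animal or a pool of up to 3 animals served an experiment. After a day in serum-free medium with 100 nM dexamethasone, a synthetic glucocorticoid, all dishes except probably the one at -5 h spent 4 h in starvation medium without it. The -5 h control is placed before that change only by counting back the hours of the protocol. The 18 arrays were 1 unstimulated control at -5 h, 5 unstimulated controls at 0, 4, 8, 12 and 24 h, 4 with IL-6 at 40 ng/ml at 1, 2, 3 and 4 h, and 8 with IL-6 and, from 4 h on, HGF at 40 ng/ml, at 5, 6, 7, 8, 9, 10, 12 and 24 h. Arrays with HGF alone, or with IL-6 alone after 4 h, were not analysed here, so after 4 h the parts of the 2 factors cannot be told apart. Each condition and hour had 1 array. Hours therefore stood in for replicates, and every p-value measures only the spread between these dishes, with change over time in it. No source used here says that dishes came from separate animals. The small number of arrays limits the precision.

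The sequences just upstream of the 4 marker genes of the group are shown because these genes had the steepest time courses in culture or, for Cyp1a1, the largest swing before stimulation. Each run holds the 250 bases before an annotated start of the gene, 5′ to 3′ on the gene's own strand, from RefSeq on GRCm38.p6. For Cyp1a1 that start and the run lie inside the annotated span of the gene, chr9:57687928-57703824. Capitals mark matches, on either strand, to 7 short motifs: TATAAA (the TATA box), GCGTG (the core of the AhR response element), AGGTCA and AGTTCA (half-sites of nuclear receptors), GTTAAT (an HNF1 half-site), TTCNNNGAA (the STAT palindrome) and TTGCNNAA (a C/EBP site). Cyp1a1 and Cyp2e1 hold TATAAA about 30 bases before the start, and Cyp1a1 also holds GCGTG. Cyp2b10 holds GCGTG on each strand and a C/EBP match. Cyp3a11 holds both half-sites, and its TATAAA lies 234 bases before the start. A match only describes the letters.
Cyp1a1, chr9:57697363-57697612, plus strand: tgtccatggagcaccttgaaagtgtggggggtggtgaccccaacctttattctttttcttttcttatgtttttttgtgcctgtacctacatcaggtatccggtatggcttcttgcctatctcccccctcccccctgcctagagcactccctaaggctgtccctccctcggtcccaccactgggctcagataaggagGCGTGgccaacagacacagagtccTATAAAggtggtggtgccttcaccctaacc
Cyp2b10, chr7:25897408-25897657, plus strand: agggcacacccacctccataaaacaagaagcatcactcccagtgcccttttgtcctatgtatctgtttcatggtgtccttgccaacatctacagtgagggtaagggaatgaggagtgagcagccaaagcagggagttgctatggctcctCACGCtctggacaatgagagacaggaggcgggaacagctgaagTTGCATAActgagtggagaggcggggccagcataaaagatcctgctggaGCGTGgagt
Cyp3a11, chr5:145879855-145880104, minus strand: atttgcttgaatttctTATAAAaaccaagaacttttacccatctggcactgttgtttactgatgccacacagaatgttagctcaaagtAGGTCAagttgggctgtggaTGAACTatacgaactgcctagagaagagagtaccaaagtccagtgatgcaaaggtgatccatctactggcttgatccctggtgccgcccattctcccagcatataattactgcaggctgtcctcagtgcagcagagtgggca
Cyp2e1, chr7:140763569-140763818, plus strand: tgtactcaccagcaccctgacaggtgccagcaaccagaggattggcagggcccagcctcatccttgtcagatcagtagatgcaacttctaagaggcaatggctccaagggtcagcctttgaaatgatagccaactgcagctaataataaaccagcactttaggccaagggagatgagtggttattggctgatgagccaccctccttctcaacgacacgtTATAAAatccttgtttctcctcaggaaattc

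The arrays had median log2 signals between 5.469 and 5.568 and mean correlations with each other between 0.9852 and 0.9942. The labelled cell type was checked against 11 measured hepatocyte markers: albumin read between 14.67 and 14.89 on every array, and the mean of the list lay between 12.62 and 13.58. The IL-6 stimulus was visible in Socs3, the feedback inhibitor of IL-6 signalling, which was 3.51 ± 0.32 log2 higher under IL-6 than in controls of 0 and 4 h (SE from limma, adjusted p = 2.44e-05). In whole-dish RNA, fewer cells of a type and less RNA per cell cannot be told apart.

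Many members declined in unstimulated cells. Between 0 and 24 h, 23 of 54 members were lower by at least 1 log2 unit in the control, against 1.93% of all genes, and 1 member, Cyp2j6, was higher by that much, against 3.76% of all genes. The median difference of the members was -0.40, and that of all genes was -0.03. Each of the families Cyp1, Cyp2, Cyp3 and Cyp4 had at least 1 member past that size.

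Cyp2b10, the classic phenobarbital-inducible target of CAR, read 11.67 at 0 h, 10.85 at 4 h, 9.90 at 8 h, 9.18 at 12 h and 7.10 at 24 h in control medium. Every later control was below the one before, and the last was 23.6-fold lower than the first. Cyp2e1, which oxidises ethanol and acetaminophen, read 12.77, 12.30, 11.79, 10.98 and 8.67 at the same hours, a 17.2-fold fall to 24 h. Cyp3a11, a PXR target and the mouse counterpart of human CYP3A4, followed a different course. It read 13.41, 13.16, 12.91, 12.79 and 9.91, so that it fell by 0.62 log2 units to 12 h and dropped by 2.89 from 12 to 24 h. Cyp2b10 ranked 2 from the lowest among 18193 genes in the difference between 24 and 0 h, Cyp2e1 ranked 5 and Cyp3a11 ranked 9.

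The hour of the decline differed among members. By 12 h, 12 members were already lower than at 0 h by at least 1 log2 unit, against 0.824% of all genes, and 0 were higher by that much, against 1.06%. The 12 were Cyp1a1, Cyp2b10, Cyp2e1, Cyp2f2, Cyp3a25, Cyp4a14, Cyp4b1, Cyp4f14 and the Cyp2c genes Cyp2c29, Cyp2c37, Cyp2c50 and Cyp2c54. From 12 to 24 h, 15 members lost at least 1 log2 unit, against 0.759% of all genes, and these included Cyp2a12, Cyp2d9, Cyp2d10 and Cyp2d26, none of which was among the earlier 12. Cyp2b10, Cyp2c29, Cyp2c37, Cyp2e1, Cyp2f2, Cyp3a25 and Cyp4a14 were in both sets. Cyp2d9, a testosterone hydroxylase that is higher in male mice, read 11.39, 11.16, 11.01, 10.93 and 8.99 from 0 to 24 h. Cyp2a12, which hydroxylates bile acids, held between 11.23 and 11.45 through 12 h and read 8.84 at 24 h. The late falls rest on the single control at 24 h.

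Some members kept their signal over the same day. Cyp3a13 read between 10.88 and 11.37 in the 5 later controls, Cyp4v3 between 10.38 and 10.47, and Cyp2r1, a vitamin D hydroxylase of the liver, between 6.91 and 7.39. Cyp2j6, an arachidonic acid epoxygenase, went the other way and read 8.22, 8.67, 8.72, 8.84 and 9.60. Its 24 h control was 1.38 log2 units above the one at 0 h. These readings come from the brighter of its 2 probe sets. The other was flat in control, with a slope of 0.01 on the log2 of the hour plus 1, beside 0.26 for the one kept. With IL-6 plus HGF the other had a slope of -0.17 on the log2 of the hour, beside 0.35.

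**Figure D1:**
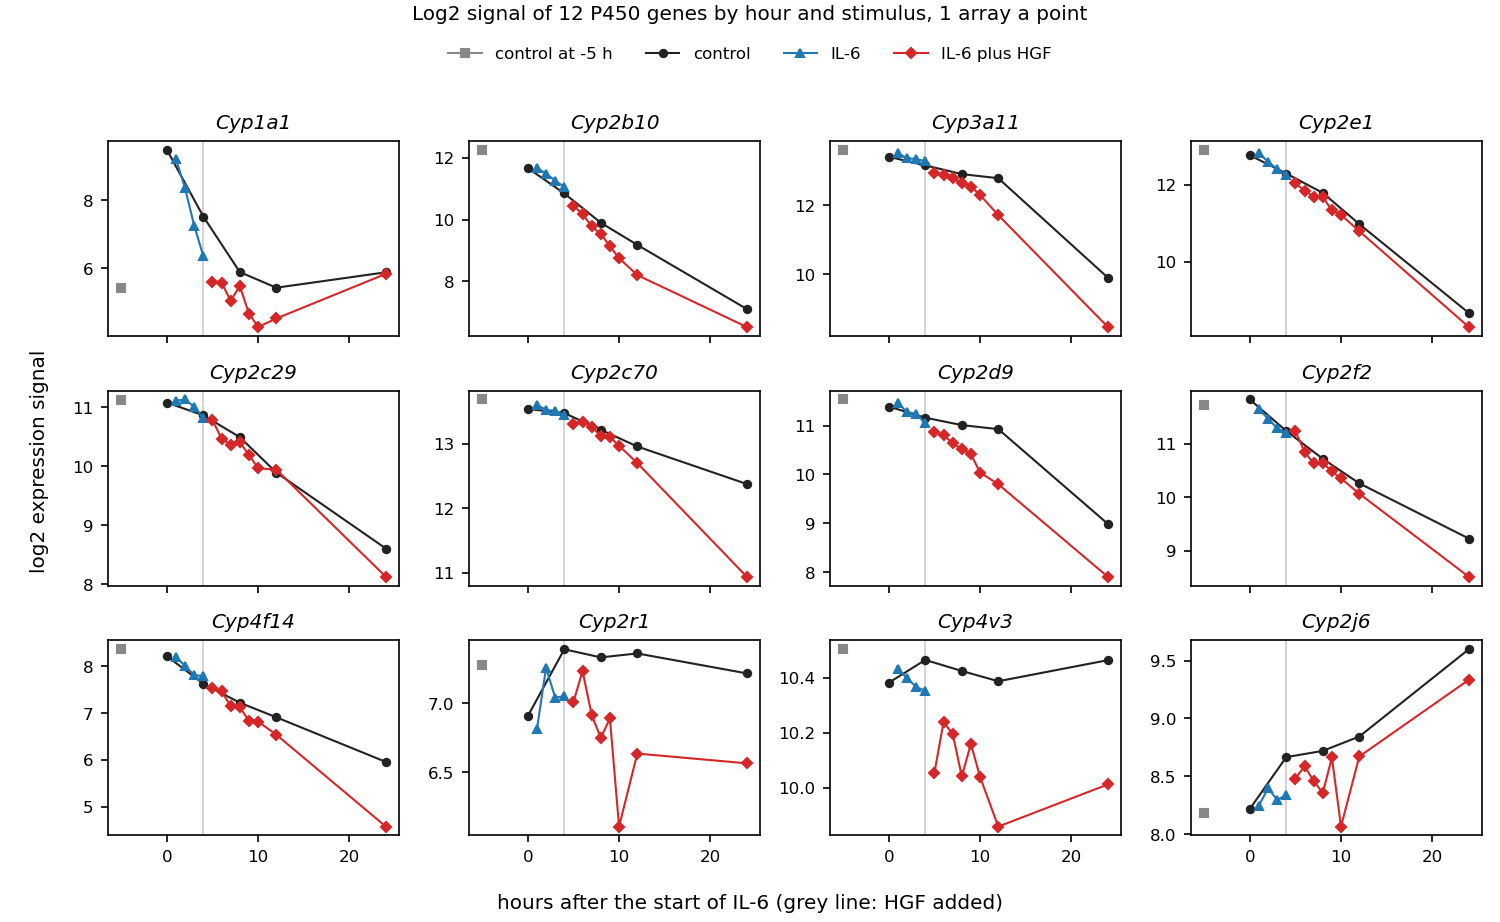
Log2 signal (vertical axes) of 12 P450 genes against hours after the start of IL-6 (horizontal axes), 1 array a point: the control at -5 h (grey squares), later controls (black circles), IL-6 (blue triangles) and IL-6 plus HGF (red diamonds), with a grey line where HGF was added. Most genes fall in every condition, from 11.67 to 7.10 in control for Cyp2b10, while Cyp2r1 and Cyp4v3 hold their level in control and lie lower with IL-6 plus HGF, and Cyp2j6 is highest at 24 h.

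When the 5 controls from 0 to 24 h were fitted with a slope on the log2 of the hour plus 1, 8 of 54 members fell and 0 rose at an adjusted p under 0.05 (limma), against 1.47% and 2.14% of all genes. Calls in either direction made up 3.61% of all genes, and 26 members had an unadjusted p under 0.05. Cyp2b10 had the lowest slope of all genes, -0.90 ± 0.16 log2 units per doubling (adjusted p = 0.0383). Cyp1a1 followed with -0.90 ± 0.13 (0.0251), and Cyp2f2, which activates naphthalene, with -0.53 ± 0.08 (0.0265). The other 5 were Cyp2c54, Cyp4f14, Cyp2j5, Cyp2c23 and Cyp4b1, with slopes from -0.46 to -0.29. Cyp2e1 (-0.77 ± 0.19, adjusted p = 0.0786) and Cyp3a11 (-0.58 ± 0.22, adjusted p = 0.185) did not pass. The count rests on few arrays: it was 0 without the control at 4 h, at 8 h or at 12 h, 14 without that at 0 h and 10 without that at 24 h. With hours in place of their logarithm, 22 members fell and 2 rose.

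Cyp1a1, which oxidises polycyclic aromatic hydrocarbons and is the standard reporter of AhR, rose and fell before and without any stimulus. It read 5.40 at -5 h and 9.49 at 0 h, 16.95-fold more, the largest rise of any gene between these arrays. Controls then read 7.52 at 4 h, 5.88 at 8 h, 5.42 at 12 h and 5.88 at 24 h, so that by 8 h the signal was back near its start. No other member was higher at 0 h than at -5 h by 1 log2 unit, against 0.379% of all genes. Cyp1a2, its neighbour on chromosome 9 and another AhR target, read 9.22 at -5 h and 9.48 at 0 h. Only 1 array stands for each of these hours, so the swing of Cyp1a1 has no replicate.

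Against all 5 later controls, the single -5 h array read higher in 41 of 54 members, with a median of 0.28 for members and 0.01 for all genes. Those controls include hours by which many members had declined. Against the controls at 0 and 4 h alone the median of the members was 0.14. From the control at 0 h the -5 h array differed by 0.60 for Cyp2b10, 0.14 for Cyp2e1, 0.21 for Cyp3a11 and -4.08 for Cyp1a1. The gaps to the mean of all later controls were larger for the first 3 of these genes. Cyp2b10 read 12.26 at -5 h, a mean of 2.52 ± 1.45 log2 units above the later controls, Cyp2e1 was 1.61 ± 1.34 above, Cyp3a11 was 1.18 ± 1.19 above and Cyp1a1 differed by -1.43 ± 1.39. None of these differences passed: 0 members and 0% of all genes were called in limma, and 2 members, Cyp2j13 (0.41) and Cyp2c65 (-0.44), had an unadjusted p under 0.05. Among 14 measured glucocorticoid targets 14 were also higher at -5 h, by a median of 0.74, and 0 were called, 6 with an unadjusted p under 0.05. The part of the dexamethasone change in these values was not tested.

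**Figure D2:**
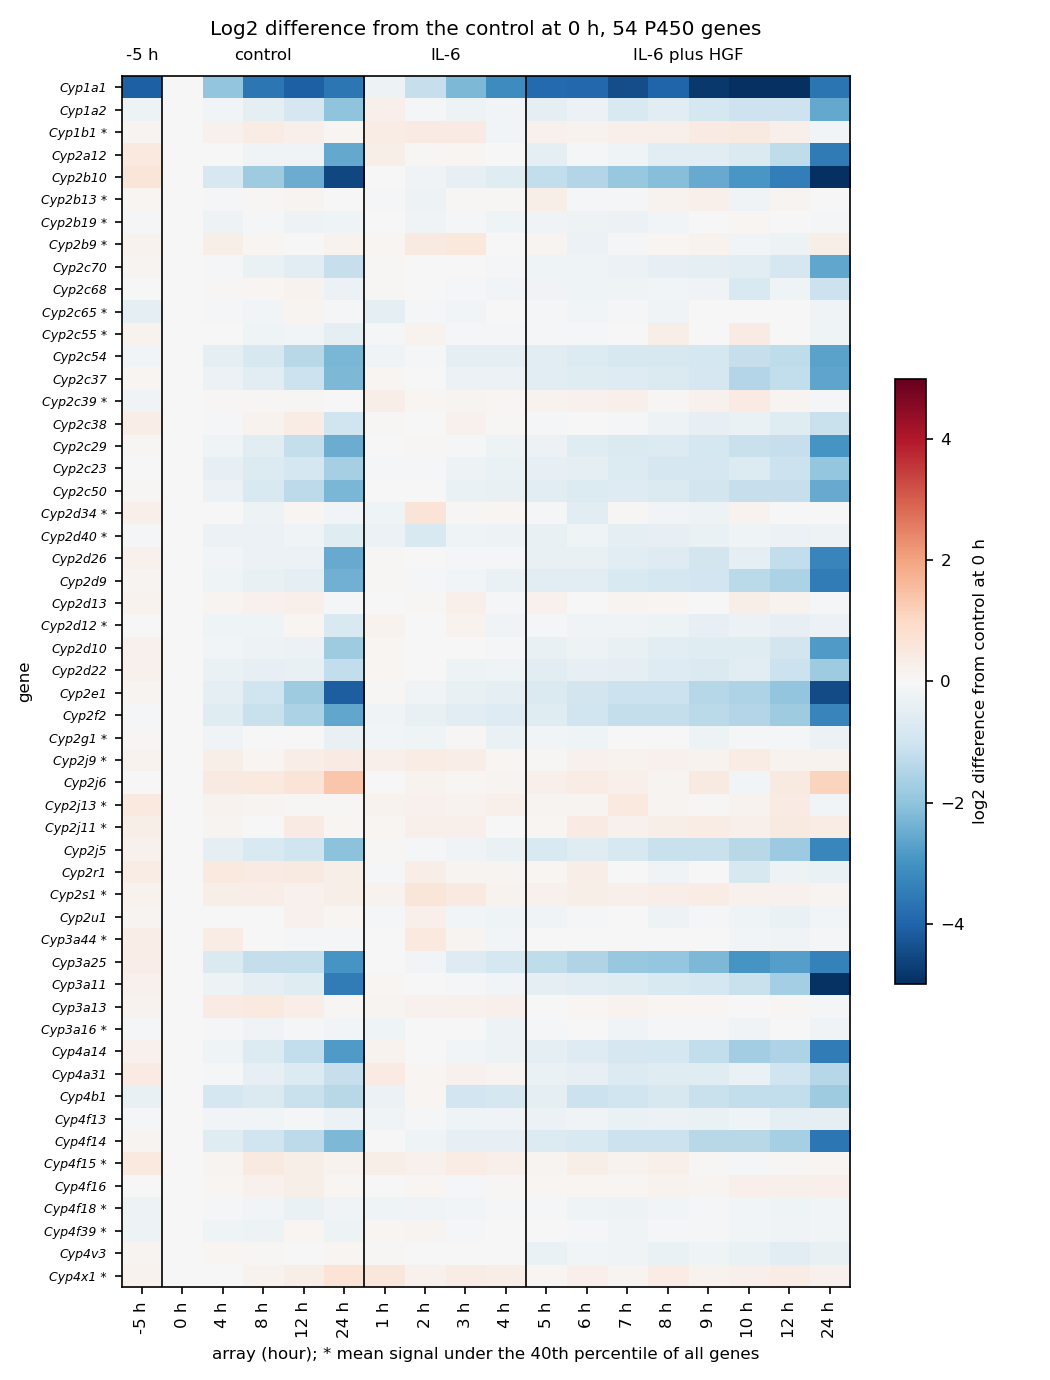
Log2 difference of each of the 54 P450 genes (rows, by family; an asterisk marks mean signal under the 40th percentile) from the control at 0 h, by array (columns, hours grouped by stimulus); the colour scale ends at 5 units in either direction. Blue (lower) is deeper at 24 h than at 4 h in control in rows such as Cyp2b10, Cyp2e1, Cyp2d9, Cyp3a11 and Cyp4f14, while Cyp3a13, Cyp4f16 and Cyp4v3 stay pale and Cyp2j6 is red (higher) at 24 h.

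During the first 4 h, IL-6 left no called change in the group. In the comparison of 4 IL-6 arrays with controls at 0 and 4 h, 0 of 54 members were higher and 0 lower (limma, adjusted p under 0.05), against 0.022% and 0% of all genes. The median difference was 0.01 for members and -0.01 for all genes. Only Cyp4x1 (0.40 ± 0.13) and Cyp4f15 (0.22 ± 0.10) had an unadjusted p under 0.05, and both are among the dim members. With hour as a covariate the counts were also 0.

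The IL-6 readings of Cyp2b10, Cyp3a11 and Cyp2e1 lay close to those of the 2 controls. Under IL-6, Cyp2b10 read 11.67, 11.49, 11.26 and 11.06 from 1 to 4 h against controls of 11.67 at 0 h and 10.85 at 4 h, a difference of 0.11 ± 0.85. Cyp3a11 read 13.51, 13.38, 13.35 and 13.28 against 13.41 and 13.16, a difference of 0.09 ± 0.98. Cyp2e1 read 12.83, 12.61, 12.41 and 12.27 against 12.77 and 12.30, a difference of -0.01 ± 0.84. For these 3 genes the IL-6 arrays overlapped the controls. The standard errors are wide because the fit pools the spread of 4 cells, and the later cells, which run to 24 h, spread most. For Cyp3a11 the SD was 0.097 under IL-6 and 0.18 in the early controls. It was 1.70 in the late controls and 1.49 with IL-6 plus HGF. A difference of 1 log2 unit was therefore not detectable for these 3 genes in this comparison. Cyp1a1 read 9.22, 8.35, 7.25 and 6.36 under IL-6 against 9.49 and 7.52, a difference of -0.71 ± 0.64. At 4 h, the only hour with both arrays, it differed by -1.16 with IL-6 and was the only member lower by at least 1 unit, against 0.0495% of all genes. That is 1 array against 1, with no replicate check.

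At 8, 12 and 24 h, where both controls and IL-6 plus HGF arrays exist, part of the P450 genes were lower with the 2 factors. With the hour as a block, 12 of 54 members were lower and 0 higher (limma, adjusted p under 0.05), against 6.46% and 2.53% of all genes. The median difference was -0.19 for members and 0.01 for all genes, and 40 of 54 members had a negative difference. In either direction, 29 members had an unadjusted p under 0.05, a count given without the share over all genes. In 33 members the stimulated array was lower at all 3 hours, against 24.6% of all genes, and in 2 it was higher at all 3, against 23.6%. Of the 12, 9 were Cyp2, 2 Cyp3 and 1 Cyp4 genes, and all 12 belonged to the 33 brighter members.

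By the probe set kept for each gene, the largest differences were those of Cyp3a11 and Cyp3a25, closely followed by Cyp2d9 (-0.90 ± 0.13). Cyp3a11 read 12.91, 12.79 and 9.91 in control at 8, 12 and 24 h and 12.64, 11.72 and 8.47 with IL-6 plus HGF. It was lower at each hour, while the groups overlapped because both fell with time, and the difference was -0.92 ± 0.20 (adjusted p = 0.0400), or 1.90-fold. Cyp3a25, another steroid and drug hydroxylase, read 7.09, 7.10 and 5.34 against 6.35, 5.53 and 4.91, a difference of -0.92 ± 0.20 (adjusted p = 0.0394) that was largest at 12 h. Neither call held when the variance was modelled robustly on signal intensity. Cyp3a13 was -0.26 ± 0.08 (adjusted p = 0.112), and the dim Cyp3a16 and Cyp3a44 differed by 0.08 and -0.06.

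Among Cyp2d genes, relatives of the human drug-metabolising CYP2D6, 4 of 8 were lower. Cyp2d9 read 11.01, 10.93 and 8.99 in control and 10.52, 9.80 and 7.91 with IL-6 plus HGF at the 3 hours, a difference of -0.90 ± 0.13 (adjusted p = 0.0130). Its stimulated array was lower at each hour. Cyp2d26 differed by -0.69 ± 0.12, Cyp2d10 by -0.66 ± 0.14 and Cyp2d22 by -0.51 ± 0.10. The other 4, Cyp2d12, Cyp2d13, Cyp2d34 and Cyp2d40, lay between -0.07 and 0.06, and 3 of these are dim. For Cyp2d13, the brightest of the 4, a second and dimmer probe set gave -0.38, beside -0.07 for the one kept. That second probe set had a slope of -0.62 per doubling of the hour with IL-6 plus HGF, beside -0.09.

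Of the 11 Cyp2c genes, which oxidise drugs and arachidonic acid, 1 passed. Cyp2c68 differed by -0.48 ± 0.11 (adjusted p = 0.0485) and lost its call in 8 of 12 alternative settings. Cyp2c70, which makes muricholic bile acids, had the largest difference of the subfamily without passing. It read 13.22, 12.96 and 12.38 in control against 13.12, 12.70 and 10.93, so that most of its -0.60 ± 0.24 (adjusted p = 0.190) came from the 24 h arrays. Cyp2c29 (-0.17), Cyp2c50 (0.00) and Cyp2c54 (-0.08), which were among the early decliners in control, differed little between stimuli.

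Single genes of other Cyp2 subfamilies were lower as well. Cyp2b10 read 9.90, 9.18 and 7.10 in control against 9.53, 8.20 and 6.52, a difference of -0.64 ± 0.12 (adjusted p = 0.0261). Its other 2 probe sets, both of a type that can share sequence with relatives, gave -1.09 and -1.08, over 1.5 times as much, with the gap at 24 h (-1.61 and -1.64, against -0.58). Cyp2a12 read 11.24, 11.23 and 8.84 against 10.87, 10.16 and 7.90 and differed by -0.80 ± 0.14 (adjusted p = 0.0196). Cyp2j5, an arachidonic acid epoxygenase, read 8.47, 8.25 and 7.17 against 8.14, 7.42 and 5.97 and differed by -0.78 ± 0.15 (adjusted p = 0.0298). In these 3 genes the difference had 1 sign at all 3 hours while the groups overlapped. Cyp2e1, in contrast to its steep fall with time, differed by -0.22 ± 0.08 and did not pass (adjusted p = 0.160). Neither did Cyp2f2 (-0.33 ± 0.13), Cyp2u1 (-0.34 ± 0.09), Cyp2s1 (-0.05 ± 0.07) or Cyp2g1 (0.03 ± 0.07).

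A pair of genes that did not fall with time in control gave groups that did not overlap at the matched hours. Cyp2r1 read 7.34, 7.36 and 7.22 in control and 6.75, 6.63 and 6.56 with IL-6 plus HGF, a difference of -0.66 ± 0.07 (adjusted p = 0.0058). Cyp4v3, a fatty acid hydroxylase, read 10.43, 10.39 and 10.46 against 10.04, 9.86 and 10.01, a difference of -0.46 ± 0.07 (adjusted p = 0.0171). With Cyp2u1 and Cyp4f13 they were the 4 of 54 members whose 3 stimulated arrays all lay below all 3 controls. Among all genes 10.2% did so, and such separation was no more frequent among members. No member had the reverse, against 8.66% of all genes. Across all 8 IL-6 plus HGF arrays Cyp4v3 ranged from 9.86 to 10.24 with a median of 10.05, below each of the 5 later controls. Cyp2r1 ranged from 6.10 to 7.24 with a median of 6.82 and overlapped the controls at 0 h (6.91) and 24 h (7.22).

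The remaining Cyp1 and Cyp4 genes were not called. Cyp1a1 read 5.88, 5.42 and 5.88 in control against 5.47, 4.52 and 5.83 (-0.46 ± 0.15, adjusted p = 0.130), and Cyp1a2 differed by -0.28 ± 0.11. Cyp4f14, a fatty acid and leukotriene hydroxylase, read 7.22, 6.91 and 5.96 against 7.13, 6.54 and 4.58, so that most of its -0.61 ± 0.23 (adjusted p = 0.155) came from 24 h. Cyp4a14, a PPAR-alpha target, differed by -0.40 ± 0.11 (adjusted p = 0.0697) and Cyp4b1 by -0.19 ± 0.09. The dim Cyp1b1 and Cyp4x1 differed by -0.10 and -0.07.

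The median member differed by -0.09 at 8 h, -0.19 at 12 h and -0.24 at 24 h. No member was lower by at least 1 log2 unit at 8 h, against 0.616% of all genes. At 12 h there were 4 (Cyp2a12, Cyp2d9, Cyp3a11 and Cyp3a25), against 1.35%, and at 24 h there were 6 (Cyp2c70, Cyp2d9, Cyp2d10, Cyp2j5, Cyp3a11 and Cyp4f14), against 1.18%, with 0 higher, against 0.632%. Each of these pairs is 1 array against 1. The count of 12 depended on the block and on single hours. Without the hour as a block 1 member, Cyp2r1, was called. Leaving out the 12 h pair left 2, Cyp2d9 and Cyp2r1, leaving out the 24 h pair left 3, the same 2 and Cyp3a25, and leaving out the 8 h pair left 9.

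**Figure D3:**
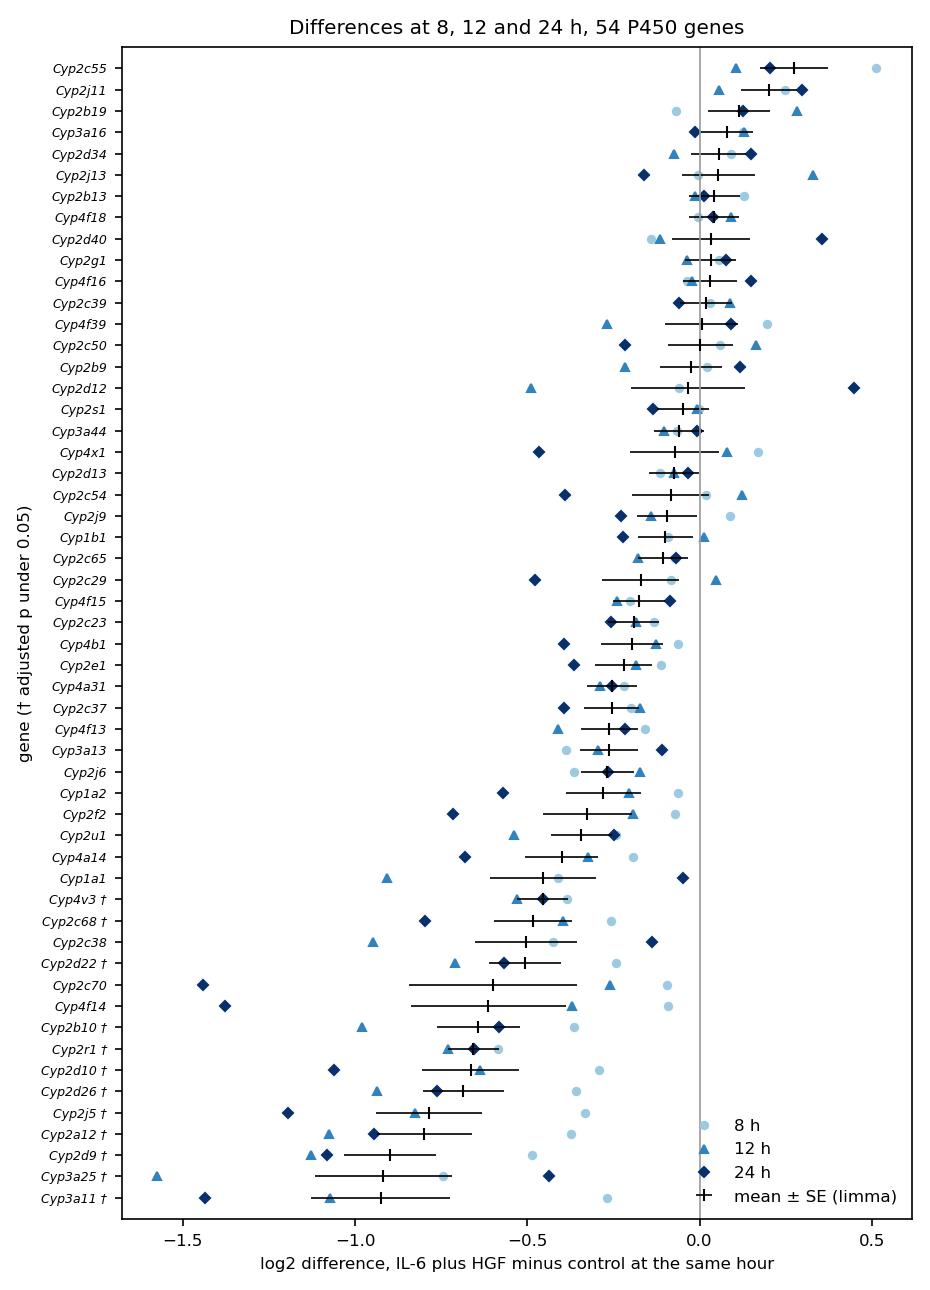
Log2 difference of IL-6 plus HGF from control at the same hour (horizontal axis) for the 54 P450 genes (rows, sorted by mean): circles 8 h, triangles 12 h, diamonds 24 h, and a black tick with a bar for the limma mean ± SE; a dagger marks an adjusted p under 0.05. The 12 daggered genes all lie left of 0, with means from -0.92 (Cyp3a11) to -0.46 (Cyp4v3), and the 24 h points of Cyp2c70 and Cyp4f14 lie far from their earlier ones.

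Within the 8 IL-6 plus HGF arrays, part of the members fell with time. On the log2 of the hour from 5 to 24 h, 24 of 54 members fell and 0 rose (limma, adjusted p under 0.05), against 4.84% and 6.27% of all genes. In either direction, 25 members had an unadjusted p under 0.05. The median slope was -0.12 log2 units per doubling of the hour for members and -0.01 for all genes. All 24 belonged to the 33 brighter members, and 8 of the 11 Cyp2c genes were among them. In 26 of the 33 brighter members the 24 h array was the lowest of the 8.

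The Cyp3a11 slope ranked 2 from the lowest among 18193 genes. Its 8 arrays ran from 12.94 at 5 h to 8.47 at 24 h with a median of 12.60 (-1.98 ± 0.26, adjusted p = 0.0011). Cyp2b10 ran from 10.44 to 6.52 with a median of 9.33 and was lower at each successive hour (-1.80 ± 0.06, adjusted p = 9.08e-07, rank 5). Its other 2 probe sets had steeper slopes, -2.36 each. Cyp2e1 ran from 12.04 to 8.31 with a median of 11.51 (-1.64 ± 0.17, adjusted p = 3.57e-04, rank 10). The next were Cyp2a12 (-1.46), Cyp4a14 (-1.36), Cyp2d9 (-1.33), Cyp4f14 (-1.30), Cyp2d26 (-1.28), Cyp2j5 (-1.19), Cyp2f2 (-1.14), Cyp2c29 (-1.12) and Cyp2d10 (-1.10). Cyp1a1 had no such slope (-0.02 ± 0.26, adjusted p = 0.978): it was lowest at 10 h with 4.27 and highest at 24 h with 5.83. From 12 to 24 h, 17 members lost at least 1 log2 unit, against 0.643% of all genes, and Cyp1a1 alone gained it, against 1.72%. Of the 12 members lower at matched hours, 10 were among the 24, all but Cyp2r1 and Cyp4v3; the comparisons share the stimulated arrays of 8, 12 and 24 h. Without the 24 h array 12 of the 24 were called, Cyp2b10, Cyp3a11 and Cyp2e1 among them.

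Whether the slopes under IL-6 plus HGF differed from those of controls was tested by their interaction over 12 arrays. Members called were 0 in either direction, against 0.0385% and 0.0605% of all genes, while 41 of 54 had the more negative slope with the factors and 7 had an unadjusted p under 0.05. The median difference was -0.09 per doubling for members and 0.00 for all genes. Cyp4f14 (-0.66 ± 0.16, adjusted p = 0.257), Cyp2c70 (-0.63 ± 0.18, 0.417), Cyp2j5 (-0.57 ± 0.16, 0.400) and Cyp2f2 (-0.37 ± 0.12, 0.564) had the smallest p-values. Cyp3a11 was at -0.77 ± 0.44, Cyp2b10 at -0.37 ± 0.15, Cyp2e1 at -0.24 ± 0.29 and Cyp1a1 at 0.62 ± 0.41. The other 2 probe sets of Cyp2b10 gave a more negative difference of slopes, -0.84 each. Hours in place of their logarithm gave 2 calls, Cyp2c70 and Cyp4f14, and leaving out the control at 24 h also gave 2, Cyp2b10 among them. The contrast of the IL-6 plus HGF effect with the early IL-6 effect likewise gave 0 members higher and 0 lower, against 0.011% of all genes each way, with Cyp4x1 (-0.56 ± 0.16) and Cyp4f15 (-0.41 ± 0.13) at the smallest p-values and 3 members at an unadjusted p under 0.05. Measured against the control at 0 h, 23 members were lower by at least 1 log2 unit in the control of 24 h and 25 in the IL-6 plus HGF array of 24 h, the latter against 2.65% of all genes. Cyp2j6 alone was higher by that much in each, against 3.8% of all genes for the latter; both use the same 0 h array.

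Some of the genes that regulate P450 expression were also lower at the matched hours. Of 28 measured receptors and factors 10 were lower and 0 higher (limma, adjusted p under 0.05), with a median of -0.29. Nr1i2, which encodes PXR, read 6.82, 7.04 and 6.51 in control at 8, 12 and 24 h and 5.55, 5.22 and 5.03 with IL-6 plus HGF. The groups did not overlap, and the difference of -1.53 ± 0.11 (adjusted p = 0.0018) was larger than that of any member. Nr1h4, the bile acid receptor FXR, differed by -1.26 ± 0.15, Nfe2l2, which encodes NRF2, by -0.80 ± 0.09 and Cebpa by -0.69 ± 0.10. Hnf4a differed by -0.67 ± 0.10 (adjusted p = 0.0130), from 10.89, 10.88 and 11.09 in control to 10.38, 9.96 and 10.51. Nr1i3, which encodes CAR, read 5.55, 5.76 and 4.72 against 4.76, 4.59 and 4.55 and missed the threshold (-0.71 ± 0.17, adjusted p = 0.0553). All readings of Nr1i3, and those of Nr1i2 with IL-6 plus HGF, lay below 5.866, the cut used to call members dim. Ahr (0.02 ± 0.15), Ppara (-0.27 ± 0.17) and Nr3c1, the glucocorticoid receptor (-0.19 ± 0.07), were not called. The mean of Ahr joins opposite differences: it read 9.69, 9.65 and 10.16 in control against 10.14, 9.65 and 9.76 with IL-6 plus HGF. In the controls over time, limma called 0 of the 28 in either direction, and 9 had an unadjusted p under 0.05.

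**Figure D4:**
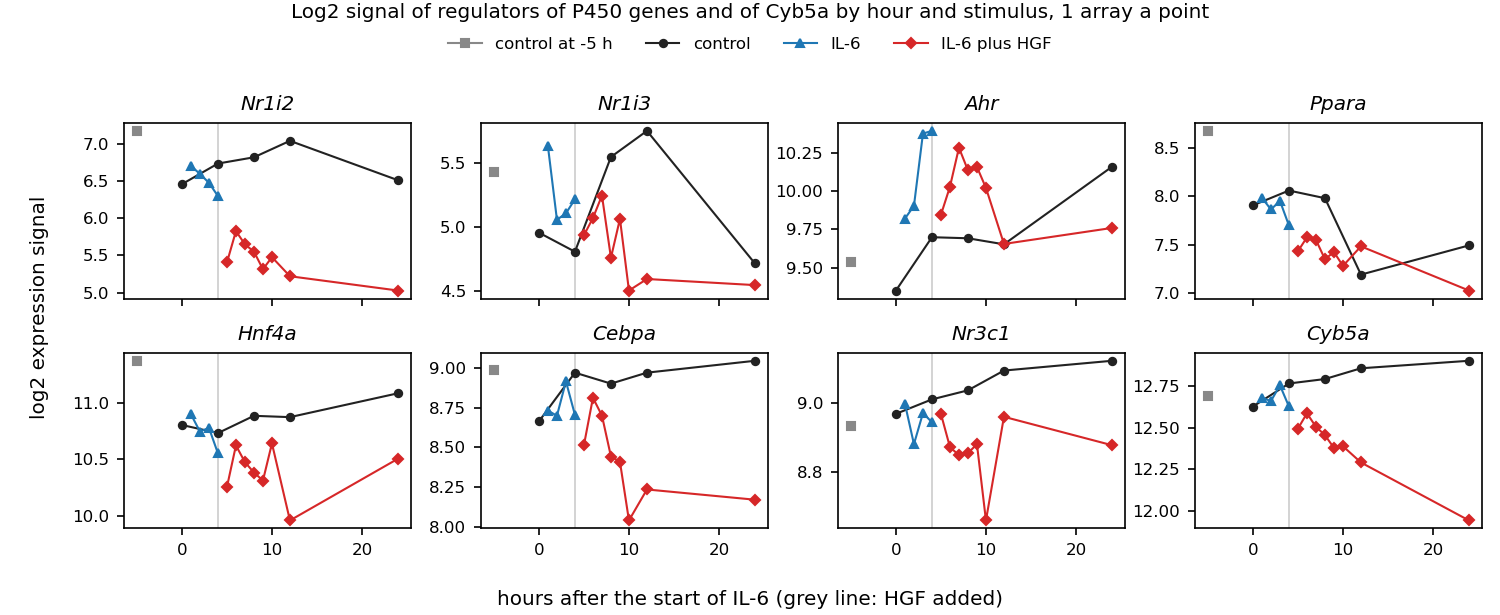
Log2 signal (vertical axes) of 7 regulators of P450 genes and of Cyb5a against hours after the start of IL-6 (horizontal axes), 1 array a point, with grey squares for -5 h, black circles for control, blue triangles for IL-6 and red diamonds for IL-6 plus HGF. Nr1i2, Cebpa and Cyb5a lie below control at 8, 12 and 24 h with IL-6 plus HGF, Nr1i2 with a mean difference of -1.53. The Ahr points of the 2 conditions meet at 12 h, with IL-6 plus HGF above control at 8 h and below it at 24 h.

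Genes of electron transfer to P450 enzymes and of heme were read at the same hours. Por, the gene of P450 oxidoreductase, was not among the measured genes. Of 9 measured electron transfer genes 2 were lower at the matched hours. They were Cyb5a, the cytochrome b5 of the endoplasmic reticulum (-0.62 ± 0.12), and Fdx1 (-0.61 ± 0.10), a ferredoxin of mitochondria rather than of the endoplasmic reticulum. Cyb5a read 12.79, 12.85 and 12.90 in control and 12.45, 12.29 and 11.94 with IL-6 plus HGF, without overlap. Of 12 genes of heme supply and breakdown 1 was lower, Alad (-0.39 ± 0.08), and Alas1, the first and rate-limiting step of heme synthesis, was at -0.30 ± 0.08 (adjusted p = 0.0804).

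Other targets of the same receptors did not move as 1 block. Of 9 other CAR and PXR targets 4 were lower, Gsta2 (-1.91 ± 0.43), Gstm1 (-0.88 ± 0.19), Abcc2 (-0.87 ± 0.08) and Abcc3 (-0.46 ± 0.10), and the efflux pump gene Abcb1a was higher (0.61 ± 0.13). Of 13 other PPAR-alpha targets 8 were lower, among them the peroxisomal fatty acid oxidation genes Ehhadh (-1.54 ± 0.12) and Acaa1b (-1.30 ± 0.29), the acyl-CoA thioesterase gene Acot1 (-1.26 ± 0.09) and Creb3l3 (-1.14 ± 0.17), which encodes a transcription factor of the endoplasmic reticulum, and Angptl4 was higher (0.84 ± 0.07). Of 5 other AhR targets 1 was called, Tiparp, which was higher (0.98 ± 0.08). Of 14 glucocorticoid targets 4 were lower, Tat (-0.85 ± 0.11), Zbtb16 (-0.64 ± 0.11), Klf9 (-0.43 ± 0.07) and Dusp1 (-0.41 ± 0.09). Several P450 genes, Cyp2e1 and Cyp1a2 among them, are known for expression around the central vein. Of 13 other pericentral genes 3 were lower, Gulo (-0.65 ± 0.11), Aldh1a1 (-0.59 ± 0.12) and Rnf43 (-0.46 ± 0.09), with a median of 0.00. Of 12 periportal genes 6 were lower and 1 higher, with a median of -0.42, and the urea cycle genes Arg1 (-2.40 ± 0.49) and Cps1 (-1.48 ± 0.23) were among the lower.

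P450 genes of other families were read at these hours as well. Of 17 measured, 3 were lower and 1 higher, beside 12 lower and 0 higher of 54 in families 1 to 4. The median was 0.02, beside -0.19 for families 1 to 4. The lower ones were Cyp7b1 (-1.14 ± 0.17) and Cyp39a1 (-0.48 ± 0.07), both oxysterol hydroxylases, and Cyp27a1 (-0.48 ± 0.10), a sterol hydroxylase, while Cyp51 of cholesterol synthesis was higher (0.45 ± 0.08). The difference between the 2 sets was not tested.

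Markers of hepatocytes and of other liver cells were read beside the matched-hour result. Of 11 hepatocyte markers 2 were lower, Ahsg (-0.92 ± 0.17) and Hnf4a, and 1 was higher, the acute-phase gene Fgb (0.58 ± 0.07). The median of the 11 was -0.20, with albumin at -0.04 ± 0.07. Albumin read near the highest signal of the series, 15.049, where a change could go unseen. The mean of the list ranged from 12.94 to 13.47 in the later controls and from 12.62 to 13.44 with IL-6 plus HGF. Kupffer cell markers were lower in 1 of 13 (Cd68), endothelial markers in 3 of 11 (Dpp4, Clec4g and Oit3) and stellate cell markers in 1 of 11 (Rgs5), with 1 higher (Vim). Of 5 cholangiocyte markers 1 was higher (Sox9). All 13 Kupffer differences were negative with a median of -0.17, and the list mean ranged from 7.05 to 7.70 in later controls and from 6.93 to 7.30 with IL-6 plus HGF. The endothelial list ranged from 7.20 to 7.54 and from 6.90 to 7.28, the stellate list from 6.61 to 6.78 and from 6.52 to 6.68, and the cholangiocyte list from 6.01 to 6.41 and from 6.15 to 6.50. The part of cell composition in the P450 result was not tested.

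Members of 1 subfamily had only slightly more similar profiles than members of different ones. Over the 18 arrays the median Pearson correlation was 0.33 for 126 pairs within a subfamily and 0.25 for 1305 pairs between subfamilies. Among the 33 brighter members these medians were 0.84 for 47 pairs and 0.73 for 481 pairs. The arrays share hours and stimuli, so these values only describe the profiles. Position gave large groups: 11 members, all the Cyp2c genes, lie on chromosome 19, and 8, all the Cyp2d genes, on chromosome 15. Neighbours of such clusters share sequence, and their probe sets may read each other.

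Upstream sequence was found in RefSeq for 43 of the 54 members. TATAAA occurred in 17 of the 43 (39.5%), against 14.3% of all 27025 genes with upstream sequence of the same length, and in 11 of these it began 19 to 39 bases before the start, 7 on the sense and 4 on the antisense strand. Among the 19 members with a promoter that fell under IL-6 plus HGF, 11 held it. That count only describes, and a link between TATAAA and the fall was not tested. Other motifs were GCGTG in 10 of 43 (30.9% of all genes), AGGTCA in 11 (15.8%), TTGCNNAA in 8 (10.8%), AGTTCA in 5 (13.4%), GTTAAT in 3 (7.49%) and TTCNNNGAA in 3 (8.13%). Tandem copies such as Cyp2b9, Cyp2b10, Cyp2b13 and Cyp2b19, which all hold TTGCNNAA, share ancestry and are not independent. The same holds for Cyp2d9, Cyp2d10 and Cyp2d26, which all hold TATAAA.

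Several probe sets read 11 of the members. At the matched hours 9 of the 11 had 1 direction over all their probe sets. Cyp1b1 and Cyp4a31 did not: a second probe set of Cyp1b1 gave 0.27 beside -0.10, and one of Cyp4a31 gave 0.02 beside -0.25. Over time with IL-6 plus HGF 6 of 11 had 1 direction, all but Cyp1b1, Cyp2j6, Cyp2u1, Cyp4a31 and Cyp4f18. In controls over time 8 of 11 had 1 direction, all but Cyp1b1, Cyp2d13 and Cyp4v3. Cyp4a12a, a male-biased fatty acid hydroxylase whose symbol ends in a letter and which is therefore no member, read 10.15 at 0 h and 7.65 at 24 h in control and 7.13 at 24 h with IL-6 plus HGF, and differed by -0.21 ± 0.11 at the matched hours.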

How the data were processed

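The deposited values were log2 expression signals of 18 one-colour Affymetrix arrays, per the labels. How they were summarized and normalized is not given in the sources used here. Sorted and set beside their average, no array departed by more than 0.118, and no further scaling was applied. Of 45101 probe sets 34945 named a single gene and 932 several, which were not used for genes. The probe set with the highest mean was kept for each of 18193 genes, with no filter on dim genes, and members whose probe sets share a type of name prone to cross-hybridisation were 3 (Cyp2c23, Cyp2c65 and Cyp4v3). Groups and hours came from the labels, and 0 columns were left over.

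Comparisons were fitted over all genes with limma 3.58.1 in R 4.3.3 (lmFit, eBayes), Benjamini-Hochberg adjusted, threshold 0.05. IL-6 against early controls used 17 arrays as 4 cell means. The matched hours used 6 arrays with hour as a block and 2 residual degrees of freedom. Slopes used log2 of the hour, in controls of the hour plus 1. Errors are limma standard errors. Every adjusted p in the text comes from limma. Counts at an unadjusted p under 0.05, and counts by the sign of an estimate, stand without a share over all genes and only describe. The fits were tested on simulated data. The genes named are the 4 markers, the members past the threshold (the 12 largest where more passed, or the smallest p where none did), the largest of each subfamily and up to 4 passing genes of each other list; Cyp4a12a, rank changes by hour and members that kept their signal were added as values after they were seen. The members, lists and comparisons were chosen with earlier results of these data known. Alternatives were quantile normalization, median centring, the 40th percentile filter, robust variance with an intensity trend, averaged probe sets, no shared-type probe sets, a size of at least 1 log2 unit, other time models (splines 4.3.3, 3 degrees of freedom) and leaving out each array or pair.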

Additional observations from a re-analysis of the deposited data

Results flagged for a closer look

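Of 111 tests of the lowest or highest array of a group for 37 named members, 25 found an array that stood apart. Chance gives about 1 in 20 in genes picked without these values. The named members include those already called in comparisons on the same arrays, so the count cannot be set against that rate. These members change with the hour, and the last array is 12 h after the one before it, so the arrays of a group are not replicates in the usual sense.

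The control at 24 h was far below the other 4 later controls in 5 members: Cyp2a12 (8.84), Cyp2d10 (10.29), Cyp2d26 (9.42), Cyp2d9 (8.99) and Cyp3a11 (9.91), in log2 signal.

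The IL-6 plus HGF array at 24 h was far below the other 7 in 18 members. They were Cyp1a2 (6.91), Cyp2a12 (7.90), Cyp2c23 (8.00), Cyp2c29 (8.13), Cyp2c37 (5.93), Cyp2c50 (8.06), Cyp2c54 (7.25), Cyp2c70 (10.93) and Cyp2d10 (9.23). The others were Cyp2d22 (7.03), Cyp2d26 (8.66), Cyp2d9 (7.91), Cyp2e1 (8.31), Cyp2f2 (8.51), Cyp2j5 (5.97), Cyp3a11 (8.47), Cyp4a14 (5.49) and Cyp4f14 (4.58).

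Among the 4 IL-6 arrays, Cyp2c39 was high at 1 h (4.44) and Cyp2d40 low at 2 h (3.44), both members below the 40th percentile of mean signal.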

How the results depend on the processing

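At the matched hours the count of 12 lower members was between 10 and 16 under quantile normalization, median centring, the 40th percentile filter, an intensity trend, the mean of probe sets and without shared-type probe sets. It was 0 with a size of at least 1 log2 unit, 1 without the hour as a block, 1 over the 4 cells of 17 arrays, whose hours are not matched, and 19 with a spline of time. Leaving out an hour gave 2 to 9. Over the 4 cells the sign turned for Cyp2a12 (0.055), Cyp2b10 (0.34), Cyp2d26 (0.057) and Cyp3a11 (0.17). No paired analysis by replicate number was possible because the labels carry no replicate numbers; hours paired the matched arrays. Under IL-6 plus HGF the 24 falling members became 13 with the size limit and 12 without 24 h, leaving out 1 array gave 12 to 25, and 1 member rose with linear hours or without the 10 h array (0 to 1). The difference of slopes gave 2 lower members with linear hours and 0 to 2 when 1 array was left out. In controls the 8 falling members became 4 with an intensity trend, 0 with the size limit, 22 with linear hours and 0 to 14 without 1 array; 1 member rose under quantile normalization, the filter, an intensity trend and without 24 h (0 to 1 when 1 array was left out), and 2 with linear hours. The counts of 0 for early IL-6, the change of effect and -5 h stayed 0 under every alternative run. The number of arrays, 1 for each condition and hour, limits all comparisons.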
